A study of Mus musculus with 23 samples.

Results

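Somatostatin (Sst), its close relative cortistatin (Cort) and 4 of their receptors (Sstr1, Sstr2, Sstr3 and Sstr4) were described in the CA3 field of the hippocampus of UBB+1 tg mice and wild-type mice. These 6 genes were chosen after measured values were known, because the mean of Sst was lower and that of Sstr2 higher in UBB+1 tg mice. Their differences between the genotypes are therefore given as a description, without a test. Every probe set that the array annotation assigns to 1 of these genes alone was taken, which gave 6 probe sets on the MOE430A array and 2 on the MOE430B array, 8 of the 45136 probe sets analysed and 6 of the 18192 genes with a probe set of their own.

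The UBB+1 tg mice were heterozygous for human UBB+1, a frameshifted ubiquitin B, driven by the CamKIIα promoter on a C57BL/6J background. They belonged to 1 transgenic line, and non-transgenic littermates served as the wild type. The mice were 18 months old, and no further treatment is named for either genotype. The promoter is active in postnatal neurons, mainly excitatory ones of the forebrain, whereas somatostatin is made by inhibitory neurons. CA3 was cut with a laser from stained sections, and 2 rounds of amplification from 5 ng of total RNA preceded hybridization. MOE430A holds 6 UBB+1 tg and 5 wild-type mice and MOE430B 6 mice of each genotype. Animals are named by genotype and number, from tg270 to wt331, and wt331 is on MOE430B alone.

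Somatostatin is a peptide that a subset of GABA neurons releases together with GABA, among them the hippocampal cells that contact the dendrites of pyramidal cells. Its precursor is cut by prohormone convertases and stored in dense-core vesicles, and cortistatin, made from another gene, binds the same receptors. All somatostatin receptors couple to inhibitory G proteins, through which they lower cyclic AMP, open potassium channels and close presynaptic calcium channels. Cyclic AMP in turn acts on Sst itself, whose promoter is the classical example of a cyclic AMP response element bound by CREB.

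The stretches before the start of Sst and Sstr2 are printed because these are the genes of the ligand and the receptor for which the group was chosen, and because both hold the same uninterrupted element. Shown are the 120 bases before the annotated start, 5′ to 3′ on the strand of the gene, from RefSeq on GRCm38.p6. For Sst this is the start given in the promoter table, which lies inside the annotated span of the gene, as the span reaches further upstream. Capitals mark the palindromic cyclic AMP response element, TGACGTCA.
Sst, chr16:23890845-23890964, minus strand: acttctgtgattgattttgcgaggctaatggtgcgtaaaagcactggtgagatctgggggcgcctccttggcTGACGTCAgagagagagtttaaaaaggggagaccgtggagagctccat
Sstr2, chr11:113619207-113619326, plus strand: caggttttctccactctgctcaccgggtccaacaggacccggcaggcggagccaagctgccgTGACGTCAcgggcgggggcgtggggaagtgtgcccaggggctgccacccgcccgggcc
In Sst the element ended 40 bases before the start and in Sstr2 50 bases before it. Promoters of 5 of the 6 genes were matched by symbol, each from 250 bases before to 50 bases after the start. The element was found in neither the window of Cort, nor the windows of the 2 starts of Sstr3, nor that of Sstr4. On either strand it was present in 588 of 32851 mouse promoters of the same length (1.79%). The shorter motif TGACG, which lies within the element, was present on either strand in 20.8% of them, and besides Sst and Sstr2 in Cort and in 1 of the 2 windows of Sstr3. A match describes letters in a window and not a bound site.

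On GRCm38.p6, Sst lies on chromosome 16 from 23889573 to 23891342 and Cort on chromosome 4 from 149125034 to 149126763. Sstr1 lies on chromosome 12 from 58211421 to 58216037, Sstr2 on chromosome 11 from 113619327 to 113626028, Sstr3 on chromosome 15 from 78537014 to 78549365 and Sstr4 on chromosome 2 from 148395377 to 148396764. Of these genes, Sstr2 alone lies within the annotated span of another gene, that of Slc39a11.

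Values are the authors' RMA intensities, that is, background-corrected, quantile-normalized brightness summarised per probe set, on the log2 scale, where 1 unit is a factor of 2. They cannot be compared between probe sets as amounts of mRNA. Array medians lay within 6.32 and 6.34 on MOE430A and within 5.49 and 5.50 on MOE430B. The arrays fell into 3 sets by clustering over all probe sets, and the sets also differed in the 3'-5' difference, the log2 intensity of the 3' minus the 5' control probe sets of Gapdh and beta-actin, which is larger where RNA or its amplified copies are shorter. On MOE430A it was 2.65 to 3.43 in the low set (tg271, wt287 and wt290), 4.44 to 4.62 in the middle set (tg273, tg274, tg276, tg277, wt291 and wt321) and 6.05 to 6.10 in the high set (tg270 and wt289). On MOE430B the sets were the same, with wt331 in the middle set. The middle set thus held 4 of 6 UBB+1 tg mice and 2 of 5 wild-type mice on MOE430A. Between the genotypes, the mean 3'-5' difference was 4.61 ± 0.83 (SD, n = 6) for UBB+1 tg and 4.10 ± 1.45 (SD, n = 5) for wild type (p = 0.455 in a two-sided exact permutation test). The 12 CA3 pyramidal cell genes listed all had a probe set, but Coch, Galnt3 and Prss35 were dim (16.8th to 19.7th percentile of the array's probe sets), whereas Elavl2, Bok and Chgb were bright (96.7th to 99.7th percentile). By limma, no probe set of either array had a false discovery rate under 10% (0% of 22625 on MOE430A and 0% of 22511 on MOE430B).

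Somatostatin had 1 probe set, 1417954_at, and the widest spread of the 8 probe sets. In wild-type mice its log2 intensity was 9.88 in wt287, 9.57 in wt289, 10.17 in wt290, 8.93 in wt291 and 8.74 in wt321. In UBB+1 tg mice it was 9.84 in tg270, 9.50 in tg271, 8.69 in tg273, 8.55 in tg274, 7.80 in tg276 and 7.47 in tg277. Thus 4 of the 6 UBB+1 tg mice lay below the lowest wild-type mouse, and the other 2 lay within the wild-type range, so that the genotypes overlapped. The UBB+1 tg mean was 8.64 ± 0.92 (SD, n = 6) against a wild-type mean of 9.46 ± 0.61 (SD, n = 5), a log2 difference of -0.82 (standard error 0.44), or 1.76-fold lower. Between the lowest and the highest animal, intensity differed 6.49-fold. Since CA3 was measured in bulk, fewer somatostatin cells in the cut area and less Sst mRNA per cell cannot be told apart.

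Sst followed the array sets as well as the genotype. The 6 mice of the middle set were at 7.47 to 8.93 and the 5 mice of the other sets at 9.50 to 10.17, with no overlap, and the 4 UBB+1 tg mice below the wild-type range were the 4 of the middle set. Among wild-type mice alone, those of the middle set were on average lower than those of the low set (log2 difference -1.18). Within the middle set the 4 UBB+1 tg mice (7.47 to 8.69) all lay below both wild-type mice (8.74 and 8.93), with a log2 difference of -0.71. Within the low set tg271 was lower than the mean of wt287 and wt290 (log2 difference -0.52), and within the high set tg270 was higher than wt289 (0.27). With the array sets as blocks in the fit, the log2 difference was -0.46 (standard error 0.24). The part of RNA quality in the difference was not tested.

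**Figure D1:**
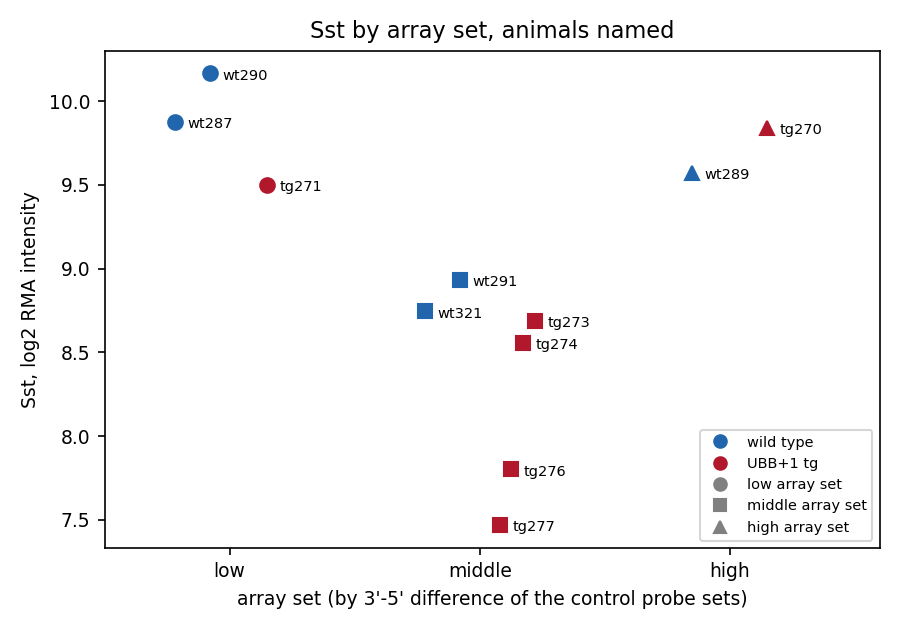
Log2 RMA intensity of Sst (vertical axis) in each of the 11 mice of MOE430A, by array set (horizontal axis), with wild-type mice in blue and UBB+1 tg mice in red. The middle set lies at 7.47 to 8.93 and the other sets at 9.50 to 10.17, and within the middle set the 4 UBB+1 tg mice lie below the 2 wild-type mice.

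Cortistatin, the other ligand, is made by inhibitory neurons that partly coincide with somatostatin cells. Its probe set 1449820_at was at 8.38, 8.27, 8.04, 8.06 and 7.86 in the wild-type mice, in the order of their numbers, and at 7.86 to 8.42 with a median of 8.08 in UBB+1 tg mice. The ranges of the genotypes nearly coincided. The log2 difference was -0.02 (standard error 0.13), and with the array sets as blocks it was 0.06 (standard error 0.09). In Cort, wild-type mice of the middle set differed from those of the low set by -0.25 on the log2 scale.

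Sstr2 encodes the somatostatin receptor that is prominent on hippocampal principal cells. Its probe set 1422256_at was at 7.13 in wt287, 6.93 in wt289, 6.89 in wt290, 6.91 in wt291 and 7.08 in wt321. In UBB+1 tg mice it was at 7.50 in tg270, 7.37 in tg271, 7.12 in tg273, 7.12 in tg274, 7.11 in tg276 and 7.19 in tg277. All 6 UBB+1 tg values exceeded the wild-type mean, and 3 of them were above the highest wild-type mouse, while the other 3 overlapped with it. The UBB+1 tg mean was 7.23 ± 0.16 (SD, n = 6) against a wild-type mean of 6.99 ± 0.11 (SD, n = 5), a log2 difference of 0.25 (standard error 0.09), or 1.19-fold higher.

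Unlike Sst, whose sign turned in the high set alone, Sstr2 kept the sign of its difference in each array set. So did 1450577_at of Sstr3, with -0.08, -0.09 and -0.17 in the low, middle and high sets. Cort was above 0 in each set (0.08, 0.01 and 0.15), against -0.02 over all mice. The log2 difference of Sstr2 was 0.35 in the low set, with tg271 as its only UBB+1 tg mouse, and 0.14 in the middle set. It was 0.57 in the high set, where 1 mouse of each genotype was compared. It was 0.28 (standard error 0.09) with the array sets as blocks. The 2 highest mice, tg270 and tg271, were those UBB+1 tg mice that lay outside the middle set, and these same mice had the highest Sst values of their genotype. Without the 2 mice of the high set, the log2 difference of Sstr2 was 0.18 (standard error 0.09) and that of Sst was -1.03 (standard error 0.44).

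Sstr1 encodes a receptor that can act as an autoreceptor on somatostatin neurons. Its only probe set, 1450527_at, was dim, and its mean stood at the 25.2th percentile of the array's probe sets. It was at 5.29 in wt287 and at 5.09 to 5.13 in the other 4 wild-type mice, and at 4.91 to 5.52 with a median of 5.17 in UBB+1 tg mice. The highest and the lowest mouse, tg270 and tg277, both were UBB+1 tg. The log2 difference was 0.05 (standard error 0.10).

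Sstr3 encodes the receptor of neuronal primary cilia, and its 2 probe sets had differences of the same sign. The probe set 1450577_at was dim, with its mean at the 30.7th percentile of its array. On MOE430A, 1450577_at was at 5.81, 5.49, 5.52, 5.55 and 5.32 in wild-type mice and at 5.25 to 5.58 with a median of 5.32 in UBB+1 tg mice, a log2 difference of -0.16 (standard error 0.10), or -0.09 without wt287. On MOE430B, 1441603_at lay between 6.77 and 7.55 with a median of 7.14 in wild-type mice and between 6.39 and 7.39 with a median of 7.04 in UBB+1 tg mice, a log2 difference of -0.20 (standard error 0.19), or -0.08 without tg270. The genotypes overlapped in both. The second difference did not keep its sign in the array sets: of the high set tg270 was at 6.39 and wt289 at 7.39, but in the middle set alone the log2 difference was 0.16. Over the 11 mice on both arrays, the 2 probe sets had a Pearson r of 0.61, a description in which both values of an animal come from the same RNA.

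Sstr4 encodes a receptor that is abundant in the hippocampus, where it acts on pyramidal cells, and its 2 probe sets went opposite ways. The brighter one, 1457440_at on MOE430B, was at the 97.7th percentile of its array. It lay between 8.88 and 9.51 with a median of 9.22 in wild-type mice and between 9.16 and 9.72 with a median of 9.58 in UBB+1 tg mice. Of the 6 UBB+1 tg values, 5 exceeded the mean of the controls and 3 the highest of them. The log2 difference was 0.25 (standard error 0.13), with 0.68 in the low set, 0.22 in the middle set and -0.29 in the high set. The other probe set, 1422281_at on MOE430A, stood at the 29.2th percentile, ranged from 5.17 to 5.67 over all animals and had a log2 difference of -0.07 (standard error 0.09). Over 11 mice the r between both was -0.47, so that they did not follow each other from animal to animal.

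**Figure D2:**
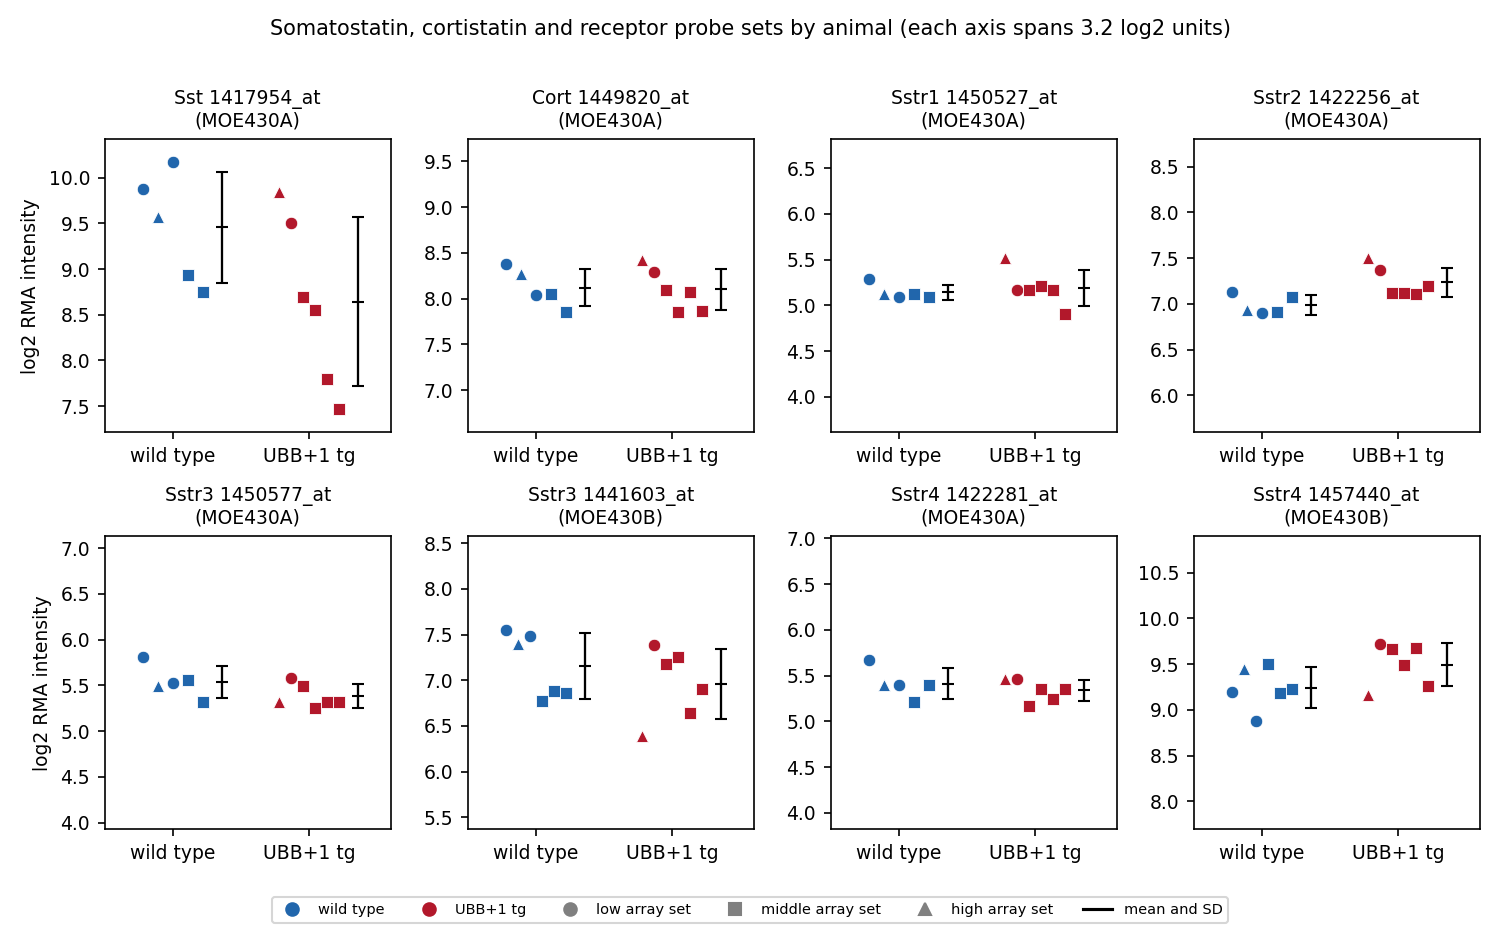
Log2 RMA intensity (vertical axes, each of the same length) of the 8 probe sets in each mouse, wild type in blue and UBB+1 tg in red, with symbols for the array set and the mean and SD of each genotype in black. The genotypes overlap in all 8, and Sst spreads over 2.70 log2 units against 0.50 to 1.16 in the others.

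Across the group, 3 probe sets had a higher and 5 a lower mean in UBB+1 tg mice, and none had a false discovery rate under 10% by limma. At an unadjusted p under 0.05, 1 of the 6 probe sets on MOE430A (Sstr2) was higher and none was lower, where 1.91% of all probe sets of the array were higher and 1.57% lower. Neither of the 2 on MOE430B reached it, where 1.52% were higher and 1.53% lower. In none of the 8 did the genotypes separate without overlap, which 0.234% of the probe sets did on MOE430A and 0.142% on MOE430B. As the genes were chosen on this contrast, nothing is read from these counts. For the size of the differences, 0.248% of the probe sets of MOE430A had a log2 difference as low as that of Sst or lower. Sst was chosen for being lower, so nothing is read from this share either.

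**Figure D3:**
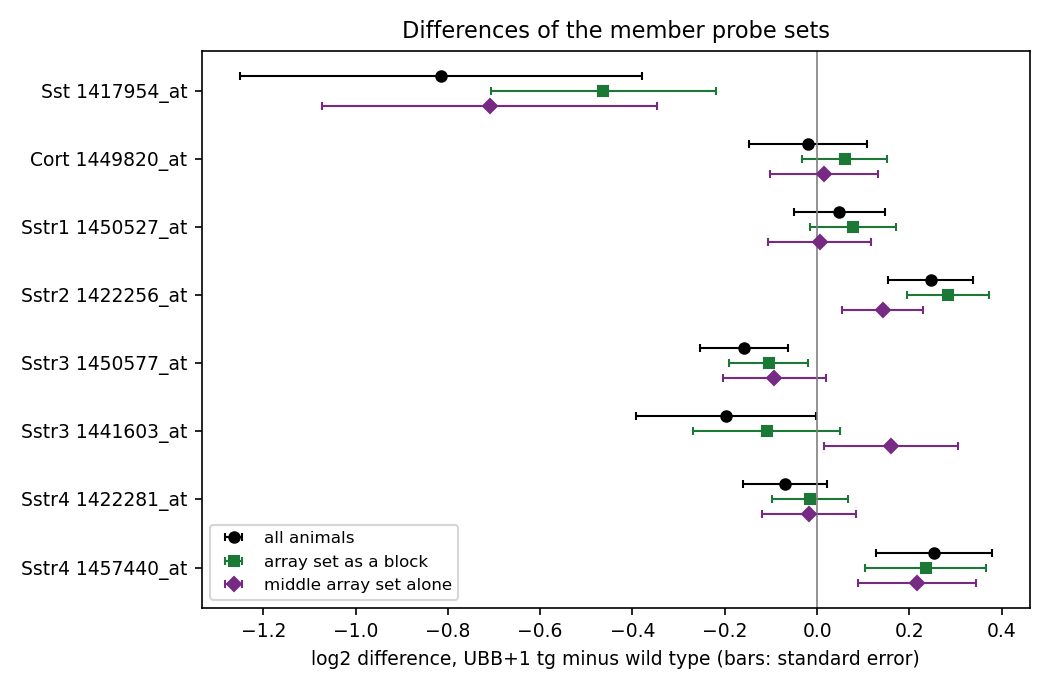
Log2 difference of UBB+1 tg minus wild type (horizontal axis) for the 8 probe sets, with standard errors, in all animals (black), with the array sets as blocks (green) and in the middle array set alone (purple). Sst is at -0.82, -0.46 and -0.71 and Sstr2 at 0.25, 0.28 and 0.14, while 1441603_at of Sstr3 turns from -0.20 to 0.16.

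From mouse to mouse, the other probe sets followed Sst to different degrees. Over the 11 mice on both arrays, whose pairs of values share the RNA and the array set, Pearson r with Sst was 0.67 for Cort, 0.53 for Sstr1, 0.01 for Sstr2, 0.58 and 0.42 for the probe sets of Sstr3 and 0.55 and -0.43 for those of Sstr4. After the means of the array sets were taken off, r with Sst was 0.01 for Cort and -0.35 for Sstr2. With the means of the genotypes taken off instead, it was 0.74 for Cort and 0.55 for Sstr2. The r of Sstr2 over all mice and within array sets holds the genotype differences for which the genes were chosen. Sstr5, the receptor gene that is not in the group, had 1 probe set on MOE430A with a log2 difference of 0.04 (standard error 0.12).

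The probe sets most like Sst over these 11 mice were those of Bcr (r = 0.988), a GTPase-activating protein, Dbi (0.982), a peptide that binds acyl-CoA and acts on GABA receptors, the ribosomal protein gene Rps29 (0.974), Zcrb1 (0.972), a splicing factor gene, the synaptotagmin gene Syt7 (0.970), the ribosomal protein gene Rpl13a (0.970), Cox7a2 (0.963), a subunit of cytochrome c oxidase, and Rlf (0.961), a zinc finger protein. They were picked for likeness to Sst, which itself split by array set, so the same split in them is not a separate result. In each of these 8, every middle-set mouse among the 11 had a lower value than every mouse of the other sets. The mouse wt331, which has no Sst value, did not follow this for Zcrb1 (10.90, with 10.71 to 10.87 in the other sets) and Syt7 (9.21, with 9.20 to 9.26). Within the array sets their r was 0.845 to 0.965. For Dbi, for example, the middle set was at 9.88 to 10.64 and the others at 10.81 to 11.12, and the log2 difference between the genotypes was -0.35. Among the probe sets most like Sstr2 were Dnah8 (r = 0.931), a dynein heavy chain gene, Dnajb13 (0.919), Ppp2r5c (0.901), a regulatory subunit of protein phosphatase 2A, Ubr7 (0.881) and Cd1d1 (0.876). None of these followed the array sets: each overlapped between the middle set and the others, as did Sstr2, for whose likeness they were picked.

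Other genes of somatostatin neurons were set beside Sst. Of 13 measured genes listed as enriched in these cells, 6 had a higher and 7 a lower mean in UBB+1 tg mice, with a median log2 difference of -0.05, against 0.00 over all genes. None had an unadjusted p under 0.05, as 3.62% of all genes had. Neuropeptide Y (Npy), which many of them co-release, had a log2 difference of -0.46 (standard error 0.43), or -0.19 with the array sets as blocks. Crhbp, a binding protein of corticotropin-releasing hormone, was at -0.54 (standard error 0.34) with all 6 UBB+1 tg values under the mean of the controls, whereas the nicotinic receptor gene Chrna2 was at -0.11 and Col25a1, a membrane collagen gene, at 0.09. The widest difference of the list, picked here after its values were seen, went the other way: the phosphodiesterase gene Pde1a was at 0.57 (standard error 0.79) and at -0.03 with the array sets as blocks, and its r with Sst was -0.79. The summed level of the list was 10.83 to 11.51 in UBB+1 tg mice and 10.84 to 11.74 in wild-type mice (log2 of summed intensities). Bright genes weigh most in such a sum, and Pde1a was at 7.71 to 10.33 in the middle set and at 6.91 to 7.86 in the others.

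Among 8 genes of all GABA neurons, 3 were higher and 5 lower (median -0.04). Of these 1, Dlx2, a transcription factor of their lineage, was lower at an unadjusted p under 0.05 (log2 difference -0.27, standard error 0.11), although its probe set was dim (4.32 to 5.09). In none of the 21 lists did more than 1 gene reach this p without blocks, which 3.62% of all genes reached. The GABA-synthesizing enzyme Gad1 was at 0.30 (standard error 0.26), and the further lineage factors Dlx1 and Dlx5 at -0.16 (standard error 0.12) and -0.07 (standard error 0.07). The list's summed level was 9.81 to 10.47 in UBB+1 tg mice and 9.69 to 10.36 in wild-type mice. Of 10 genes of other interneuron classes, 4 were higher and 6 lower (median -0.13, and -0.03 with the array sets as blocks), with Lamp5, a gene of neurogliaform cells, lower at an unadjusted p under 0.05 (-0.36, standard error 0.15), the cannabinoid receptor gene Cnr1 at 0.21 (standard error 0.13), Sncg at -0.14 (standard error 0.11) and the serotonin receptor gene Htr3a at -0.17 (standard error 0.15), and their summed level was 11.52 to 12.52 and 11.63 to 12.38.

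Some of these genes separated by array set. The summed level of the other interneuron classes was 11.52 to 11.85 in the middle set and 12.02 to 12.52 in the other sets, without overlap, as for Sst. Cck, the brightest gene of that list, weighs most in this sum. The middle-set mean minus that of the other sets was -0.78 for Cck, -1.26 for Pvalb, -0.74 for Kit and -0.24 for Sncg. It was 0.28 for Cnr1, 0.15 for Htr3a, 0.12 for Vip, 0.07 for Lamp5, 0.05 for Tac1 and 0.00 for Calb2. The summed level of all GABA neurons overlapped (10.03 to 10.36 and 9.69 to 10.47). Single genes, picked here after their values were seen, differed in this respect. The parvalbumin gene Pvalb, of another interneuron class, was at 8.05 to 8.80 in the middle set and at 9.52 to 10.02 in the others. Npy was at 7.35 to 8.92 and 8.93 to 9.76. Gad2, the second GABA-synthesizing enzyme, ran the other way (6.19 to 8.50 and 5.81 to 6.63, an overlap due to tg273), and Gad1 was highest in the high set. Their r with Sst over 11 mice was 0.86 for Npy, 0.85 for Pvalb, 0.07 for Gad1 and -0.68 for Gad2, and with the means of the array sets taken off it was 0.66, 0.29, 0.09 and -0.13.

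**Figure D4:**
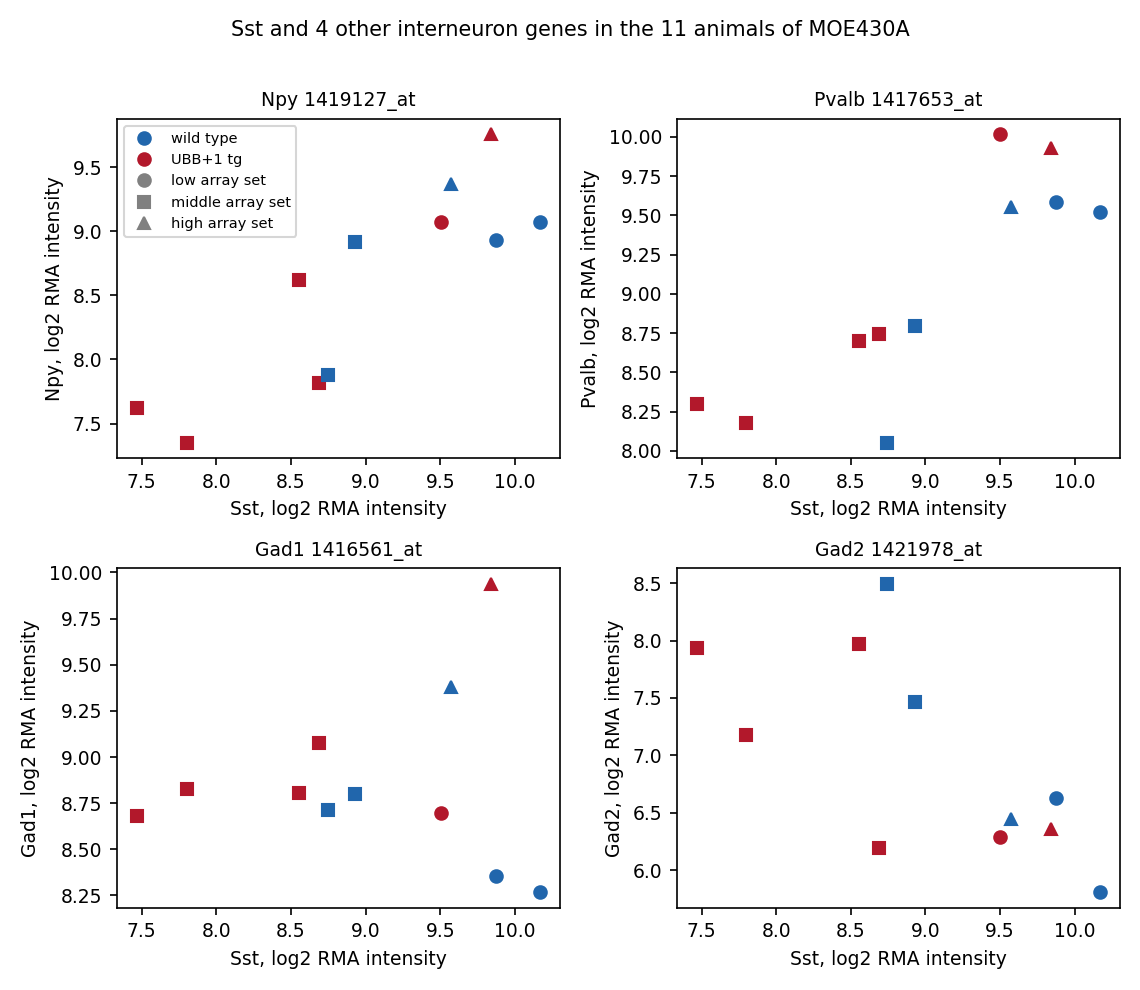
Log2 RMA intensity of Npy, Pvalb, Gad1 and Gad2 (vertical axes) against that of Sst (horizontal axes) in the 11 mice of MOE430A, with colour for genotype and symbols for the array set. The middle-set mice (squares) lie at low Sst and low Npy and Pvalb, and all but tg273 lie at high Gad2.

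Genes that make and act after the peptide were counted from lists around the receptors, and by limma none of them had a false discovery rate under 10%. Single genes named below at an unadjusted p under 0.05 stand beside 3.62% of all genes at that p. Of 9 genes of prohormone processing and dense-core vesicles, 4 were higher and 5 lower (median -0.07) and none reached an unadjusted p under 0.05. Pcsk1n, an inhibitor of prohormone convertase, was at -0.81 (standard error 0.59) and at -0.27 with the array sets as blocks, and carboxypeptidase E (Cpe) at 0.17 (standard error 0.13), while the granins Chgb and Scg3 were at 0.08 (standard error 0.08) and 0.21 (standard error 0.23). Of 15 other neuropeptide genes, 6 were higher and 9 lower (median -0.05). Prodynorphin (Pdyn), an opioid precursor, was lower at an unadjusted p under 0.05 (-0.17, standard error 0.06, below the mean of the controls in all 6), although its probe set was dim, and the proenkephalin gene Penk was at -0.16 (standard error 0.12) and Cck at -0.29 (standard error 0.27).

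Of 10 genes of inhibitory G proteins, 5 were higher and 5 lower (median -0.02), with the alpha subunit genes Gnaz at 0.18 (standard error 0.13), Gnao1 at -0.24 (standard error 0.21) and Gnai1 at 0.19 (standard error 0.19) and the beta subunit gene Gnb5 at -0.20 (standard error 0.27). All 9 adenylyl cyclase genes, some of whose products these proteins inhibit, had a higher mean in UBB+1 tg mice (median 0.16), as 9108 of all 18192 genes had, but none reached an unadjusted p under 0.05. Adcy9 was at 0.47 (standard error 0.23), Adcy8 at 0.22 (standard error 0.12), Adcy4 at 0.11 (standard error 0.08) and Adcy1 at 0.32 (standard error 0.24). Of 11 genes of protein kinase A and CREB, 7 were higher and 4 lower. Their median of 0.13 rests on the brightest probe set of each gene, since it was 0.00 when the probe sets of a gene were averaged. The regulatory subunit gene Prkar2a was higher at an unadjusted p under 0.05 (0.15, standard error 0.07, above the wild-type mean in all 6), Prkar1b, another regulatory subunit gene, was at 0.17 (standard error 0.10), the coactivator gene Crebbp at 0.31 (standard error 0.15) and the coactivator gene Crtc1 at -0.43 (standard error 0.29).

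The channels on which the receptors act showed small differences. Of 6 genes of G protein-gated and M-type potassium channels, 3 were higher and 3 lower (median -0.01), with Kcnq3 at -0.16 (standard error 0.12), Kcnj3 at -0.15 (standard error 0.14), Kcnj6 at 0.11 (standard error 0.11) and Kcnq5 at 0.28 (standard error 0.28). Both presynaptic calcium channel genes were close to 0, with Cacna1a at -0.04 (standard error 0.14) and Cacna1b at -0.00 (standard error 0.12). Of 12 genes of receptor desensitisation and phosphatases, 8 were higher and 4 lower (median 0.11, and 0.05 with the array sets as blocks or with averaged probe sets). Rgs4, which shortens G protein signals, was higher at an unadjusted p under 0.05 (0.39, standard error 0.17), the arrestin gene Arrb2 was at -0.46 (standard error 0.24), the phosphatase gene Ptprj at 0.12 (standard error 0.07) and the receptor kinase gene Grk5 at 0.17 (standard error 0.12).

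Markers of other cells in or near the cut area were set beside these values. The 12 CA3 genes had a median log2 difference of 0.11 and a summed level of 13.58 to 13.92 in UBB+1 tg mice and 13.57 to 13.82 in wild-type mice. Of 6 genes of CA2, the neighbouring field, 5 were higher in UBB+1 tg mice (median 0.30, summed level 9.84 to 11.58 and 9.72 to 10.61). Cacng5, a regulator of AMPA receptors, was at 0.71 (standard error 0.20) with an unadjusted p under 0.05, as 3.62% of all genes had. With the array sets as blocks, the CA2 median was 0.51, and 4 of the 6 (Pcp4, Rgs14, Cacng5 and Sostdc1) were higher at an unadjusted p under 0.05, as 3.77% of all probe sets of MOE430A were. The 7 genes of CA1 and the 8 of dentate granule cells had medians of 0.06 and -0.03. Medians were -0.06 for astrocytes, 0.04 for oligodendrocytes, -0.05 for microglia, 0.10 for vessels and 0.02 for choroid plexus. The part of the cut area in the values of Sst and Sstr2 was not tested.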

How the data were processed

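Intensities of 1-colour Affymetrix arrays were analysed, deposited by the authors as RMA values (background correction, quantile normalization, summary per probe set), with MOE430A and MOE430B processed apart. Intensities on MOE430A are whole numbers on a linear scale, of which the log2 was taken. The deposited MOE430B values are log2 values. RMA forces the arrays to the same distribution, and its version is not given in the sources used here. The number of arrays limits the precision. The labels and the methods name different versions of the RNA isolation kit.

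Groups were taken from the sample labels. The 64 control probe sets of each array and the MOE430A probe set that detects the transgene promoter were left out. The 2 kinds of array were fitted apart with limma 3.58.1 (lmFit, eBayes) in R 4.3.3, UBB+1 tg minus wild type, and p-values were adjusted after Benjamini and Hochberg within each. The methods' main analysis worked on single probes and could not be repeated on summarised values. The methods also state that its results held in a limma t-test on RMA values at a false discovery rate under 10%. The main fit here is of that kind, and no probe set reached that rate. For each gene of a list, the brightest of its single-gene probe sets was used, on MOE430B only where MOE430A had none. The fit was checked on simulated data.

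The group of genes, the 21 gene lists and the array sets were chosen with earlier results of these data known. Array sets are the 3 groups of a complete-linkage clustering of the arrays with 1 minus Pearson r as distance. Named are all probe sets of the group, from each list around the receptors or of interneurons the genes of smallest p (4 at most), and the 8 and 5 probe sets most like Sst and Sstr2; of the other marker lists, medians and a few genes are given. Alternatives were the array set as a block, the largest array set alone, the 3'-5' difference as a covariate, a second quantile normalization, median centring, a floor at the 25th percentile, only the 11 animals on both arrays, only bright probe sets, another variance prior, a false discovery rate of 5%, averaged probe sets and leaving out each animal. Leaving out the high array set was added after seeing the data. P-values of the fit weigh the difference between the genotypes against the spread between these mice. Without blocks, that spread includes the one between array sets.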

Additional observations from a re-analysis of the deposited data

Results flagged for a closer look

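For Sstr1, the wild-type mouse wt287 stood apart from the other wild-type mice: its log2 intensity was 5.29, and the other 4 were at 5.09 to 5.13. It was the only such value in 22 groups of mice looked at, and chance alone gives about 1 in 20.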

How the results depend on the processing

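The log2 difference of Sst ranged from -1.06 (without tg270) to -0.58 (without tg277) when 1 mouse was left out and from -1.03 to -0.46 under the other settings. That of Sstr2 ranged from 0.19 to 0.28 and from 0.14 to 0.28. The signs of both held under all 18 alternatives run. Both genes were chosen for these signs in the same mice, so nothing is read from this. The sign turned in 6 of 18 alternatives for Cort, in 2 of 18 for Sstr1 and in 1 of 20 for 1441603_at of Sstr3, and in none for the other probe sets. No difference moved by as much as 1 residual SD. The number of probe sets past a false discovery rate of 10% in limma was 0 on MOE430A under every alternative run. On MOE430B it was 1 instead of 0 among bright probe sets only and with a covariate for the 3'-5' difference, and 0 to 1 with 1 mouse left out (1 without wt291). Each time this was 1447669_s_at of Gng4, a G protein gamma subunit gene named here after its values were seen, with log2 differences of 0.92, 0.85 and 1.01. At an unadjusted p under 0.05, 788 probe sets of MOE430A became 1627 with the array set as a block and 356 among the bright ones, 1507 without tg271, 1297 without wt289, 448 without wt287 and 499 without wt290. On MOE430B, 687 became 1140, 369 and, without tg271, 1429. The counts of 356 and 369 come from the probe sets brighter than the median alone. They cannot be set against 788 and 687, which come from all probe sets. Within array sets, r with Sst fell from 0.963 to 0.853 for Cox7a2 and from 0.961 to 0.845 for Rlf. With the block, list medians moved by over 1.5 times for CA2 (0.51), oligodendrocytes (0.18), astrocytes (-0.12), protein kinase A and CREB (0.08), GABA neurons (-0.08), dentate granule cells (-0.06), CA3 (0.06), desensitisation (0.05), choroid plexus (0.05), other interneuron classes, other neuropeptides, somatostatin neurons and inhibitory G proteins (each -0.03) and prohormone processing (-0.02), and those of the potassium and calcium channels turned to 0.02. With averaged probe sets they moved as far for protein kinase A and CREB (0.00), desensitisation (0.05), vessels (0.02), astrocytes (-0.00), choroid plexus (0.04), dentate granule cells (-0.04), calcium channels (-0.06), potassium channels (-0.01), somatostatin neurons (-0.03) and inhibitory G proteins (-0.00). Leaving out 1 mouse gave -0.09 to 0.04 for Cort, -0.02 to 0.10 for Sstr1, -0.21 to -0.09 and -0.28 to -0.08 for Sstr3 and -0.12 to -0.00 and 0.18 to 0.32 for Sstr4. The causes were not tested. No paired analysis was possible because the genotypes share no animal numbers. Dim probe sets such as that of Sstr1 leave little signal over background.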
